A study of Saccharomyces cerevisiae with 6 samples.

Results

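Transcripts of the yeast vacuole were followed in Saccharomyces cerevisiae: the subunits and assembly factors of the vacuolar proton pump (V-ATPase), 7 vacuolar hydrolases, and 5 transporters of calcium or amino acids. The genes were picked by name and function, as the non-control probes that carry the locus tags of 33 listed genes. A probe was found for 32 of the 33, out of 6256 gene probes in all. No probe carried the tag of VMA9, the e subunit of the pump, which is not analysed here. Total RNA came from BY4741, a haploid laboratory strain of mating type a that lacks HIS3, LEU2, MET17 and URA3, and from a strain with PHO80 deleted in the same background. Both had fermented 80 g/l xylose for 6 h, and each strain was measured on 3 Agilent arrays in 1 colour (Cy3). Pho80 is a cyclin: with the kinase Pho85 it holds the phosphate-starvation activator Pho4 inactive while phosphate is plentiful, and the comparison asks how transcription differs without it during xylose fermentation. The marker used for the deletion, and whether the arrays of a strain came from separate cultures, are not given in the sources used here.

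The vacuole is the yeast counterpart of the lysosome. The V-ATPase splits ATP in its cytosolic V1 sector to drive protons through its membrane V0 sector, and the acid lumen and the proton gradient that result serve proteases, which mature and work in it, and exchangers such as Vcx1 and the Avt transporters, which are coupled to it. V0 is built in the endoplasmic reticulum (ER) with dedicated assembly factors, and V1 can detach from V0 and be rejoined by the RAVE complex, for example when glucose is withdrawn and given back. The vacuole also stores phosphate as polyphosphate, calcium and amino acids.

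Signals are given as log2 of the processed spot intensity minus the 75th percentile of the array, averaged over the 7 spots of a probe, so 0 stands for that percentile. PHO80 itself read -2.93, -2.83 and -2.86 on the wild-type arrays and stayed below the scanner's background limit (not well above background) on every deletion array. Its signal without the gene was at least 27.4-fold lower, the wild-type mean being set against the lowest signals well above background (adjusted p = 0.00153, limma). Across the arrays the 75th percentile ran from 2404 to 5011 intensity units and the share of probes well above background from 92.0% to 94.6%; all 32 vacuolar genes were well above it on all 6 arrays. Arrays 1 and 3 of each strain differed by no more than their repeated spots did, with a median squared difference over spot variance of 0.435 in BY4741 and 0.412 without PHO80 against 0.484 for spot noise alone. They were averaged and counted as 1 sample, which leaves 2 samples per strain. Array 2 of the wild type lay near its companions (0.634 and 0.669) and array 2 of the deletion strain far from them (88.6 and 94.8). The fit pools the small wild-type spread with the larger deletion spread, so its SEs and calls rest on counting the wild type as 2 samples. The p-values and standard errors (SE) describe only the spread between these few samples, which may be technical. Each strain had its own slide and scan, and the effects of slide and of strain cannot be told apart. In RNA of a whole culture, a change in every cell and a change in the share of cells that express a gene cannot be told apart either.

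Among the 32 vacuolar genes, 6 rose and 9 fell without PHO80, and 17 did not pass the test (limma, Benjamini-Hochberg adjusted p under 0.05 over the 5863 genes tested). The shares, 18.8% higher and 28.1% lower, lie near those of all genes tested, 19.2% and 34.6%. The median log2 fold change was -0.42, against -0.28 for all genes. The changes were not spread evenly over the roles. Among the 6 V0 subunits 5 fell and none rose. Of the 8 V1 subunits 1 rose and 1 fell. Of the 7 hydrolases 3 rose and none fell. The transporters split, with VCX1 and AVT4 higher and AVT1 lower. These splits by role are counts and were not tested. On 9 genes all 3 deletion arrays lay above all wild-type arrays and on 17 genes below, while 6 overlapped. Of all genes tested 31.1% lay above in this way and 50.9% below.

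**Figure D1:**
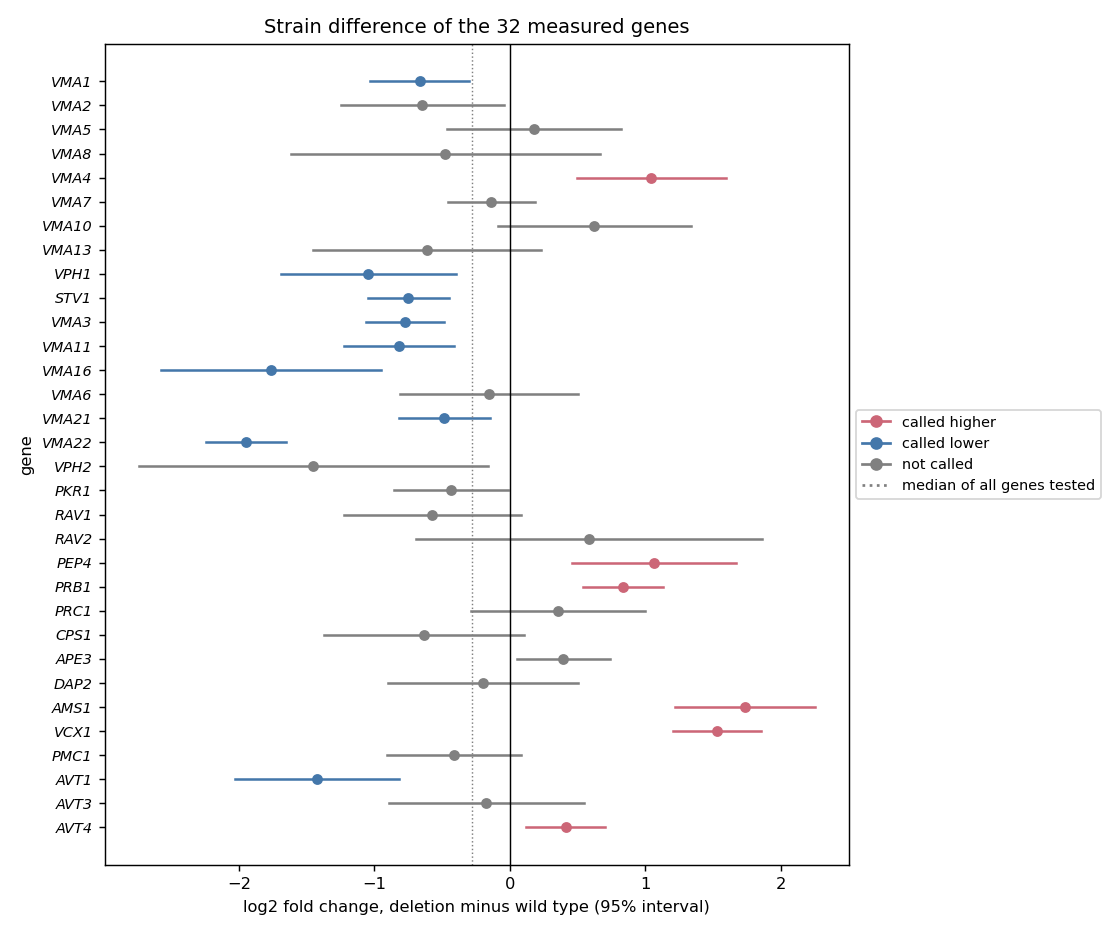
Log2 fold change (deletion minus wild type) of the 32 measured genes, with the 95% interval from limma on 2 samples per strain as a line and called genes in colour. The dotted line is the median of all genes tested, -0.28; AMS1 and VCX1 lie farthest to the right and VMA22 and VMA16 farthest to the left.

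With 2 samples per strain, the 5 called V0 subunits were all lower, beside 34.6% of all genes tested. VMA16 encodes the c'' proteolipid of the proton-carrying ring. It read 1.05, 1.01 and 1.03 on the wild-type arrays and -0.37, -1.12 and -0.34 on the deletion arrays. All deletion arrays lay below the wild type, array 2 lowest, and the signal was 3.39-fold lower (log2 fold change -1.76 ± 0.29 SE, adjusted p = 0.0126, limma). The other ring proteolipids fell less. VMA3, the c subunit, read 1.79, 1.75 and 1.77 in BY4741 and 0.96, 0.99 and 1.03 without PHO80, so all 3 deletion arrays stood close together and well below. VMA11, the c' subunit, read 2.23, 2.26 and 2.28 in BY4741 and 1.59, 1.30 and 1.58 without PHO80. The falls were 1.71-fold for VMA3 (-0.77 ± 0.10, adjusted p = 0.00779) and 1.76-fold for VMA11 (-0.82 ± 0.15, adjusted p = 0.0151). The 3 proteolipids are related proteins, as are VPH1 and STV1 and the AVT transporters, and whether a probe also binds a relative's transcript was not tested.

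The a subunit, which forms the proton path beside the ring, comes in 2 isoforms that send the pump to different membranes. VPH1, the vacuolar isoform, read 1.14, 1.13 and 1.15 in BY4741 and 0.39, -0.20 and 0.38 without PHO80. STV1, the isoform of Golgi and endosomes, read -0.25, -0.22 and -0.27 in BY4741 and -1.04, -0.96 and -1.02 without PHO80. Neither gene's groups overlapped, and array 2 of the deletion strain was the lowest for VPH1 but not for STV1. VPH1 was 2.06-fold lower (adjusted p = 0.0259) and STV1 1.68-fold lower (adjusted p = 0.00918). The isoforms' log2 fold changes differed by -0.30 (VPH1 minus STV1), with 0.05 and 0.01 on deletion arrays 1 and 3 and -0.62 on array 2 relative to the wild-type mean of this difference. The exact two-sided permutation p over 2 against 2 samples was 1, where the smallest this design allows is 0.333. VMA6, the d subunit that joins the ring to the central stalk, did not pass (-0.15 ± 0.24, adjusted p = 0.609). It read 2.04, 2.03 and 2.04 in BY4741 and 2.18, 1.59 and 2.17 without PHO80, above the wild type on arrays 1 and 3 and below it on array 2. Of the 5 V0 calls only VMA16 was kept without wild-type array 2, where VPH1, STV1, VMA3 and VMA11 had adjusted p = 0.0609, 0.232, 0.183 and 0.175. That fit, and the fit with the wild type as 1 sample, take their spread from the deletion strain alone. Both have 1 residual and infinite prior degrees of freedom, so genes of like intensity share 1 variance. Without wild-type array 2 the SE was 0.45 for both VMA3 and VPH1, against 0.10 and 0.23 with 2 samples per strain. Calls lost or gained in these fits therefore depend mainly on the size of the fold change, not on the gene's own spread.

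The V1 sector moved both ways. VMA4, the E subunit of the peripheral stalks, read 1.65, 1.65 and 1.67 in BY4741 and 2.42, 2.93 and 2.51 without PHO80. It was the only called rise in the pump, 2.06-fold (1.04 ± 0.20, adjusted p = 0.0171). Its partner in the stalks, the G subunit gene VMA10, read 3.96, 3.95 and 3.94 in BY4741 and 4.31, 4.88 and 4.21 without PHO80. All deletion arrays were above the wild type here too, with a log2 fold change of 0.62 (95% interval -0.09 to 1.33, adjusted p = 0.109). VMA1, the catalytic A subunit, read 1.67, 1.75 and 1.73 in BY4741 and 1.19, 0.95 and 1.15 without PHO80, a fall of 1.58-fold (adjusted p = 0.0192). VMA2, the B subunit that alternates with A in the V1 head, read 0.98, 1.02 and 1.01 in BY4741 and 0.08, 0.62 and 0.10 without PHO80. Its log2 fold change, -0.65, was close to that of VMA1, but its deletion arrays were wider apart and it did not pass (adjusted p = 0.0694). Without wild-type array 2 neither VMA4 nor VMA1 was called (adjusted p = 0.0837 and 0.292). VMA1 also lost its call with median centring (-0.37, adjusted p = 0.0747).

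The other 4 V1 genes were not called. VMA13, the H subunit that silences free V1, had a log2 fold change of -0.61 (95% interval -1.46 to 0.23). On its deletion arrays it read 0.64, 1.44 and 0.66, against 1.62 to 1.68 in wild type. VMA8, the D subunit of the central stalk, read 1.46, 0.34 and 1.43 in the deletion strain and 1.34 to 1.39 in wild type, so only array 2 stood away from the wild type. VMA5, the C subunit that bridges V1 and V0, read -0.41, -0.99 and -0.43 in the deletion strain and -0.92 to -0.84 in wild type, higher on arrays 1 and 3 and lower on array 2. VMA7, the F subunit of the central stalk, had a log2 fold change of -0.14 (95% interval -0.46 to 0.19), or 0.16 with median centring.

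**Figure D2:**
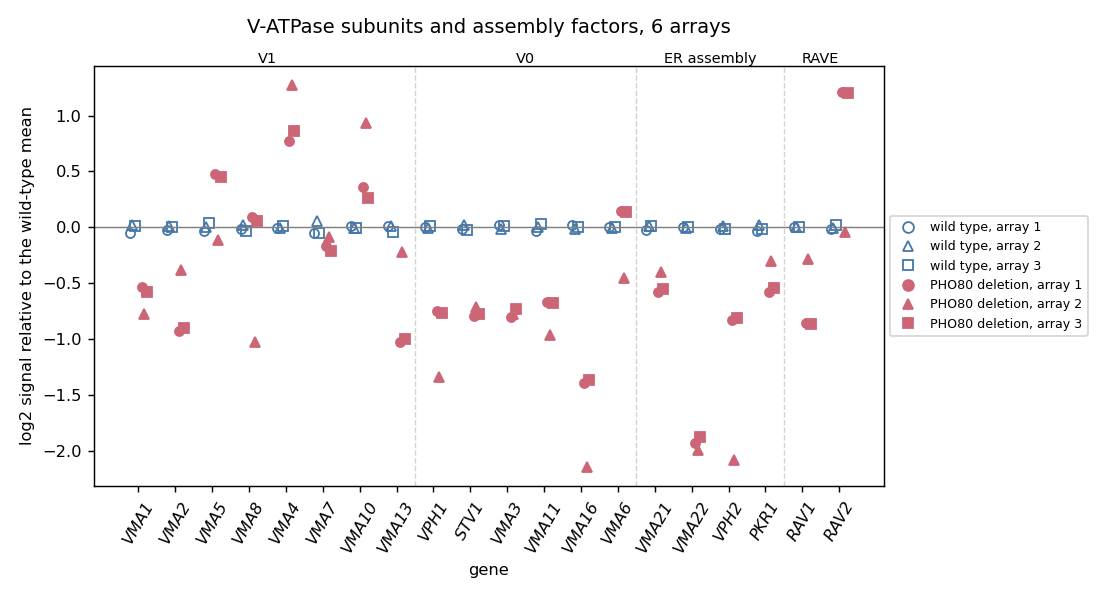
Signal of the V-ATPase genes on each of the 6 arrays (log2, relative to the wild-type mean of the gene), by sector and assembly step. Open blue symbols are wild-type and filled red symbols deletion arrays; the V0 genes except VMA6 lie below 0 on all 3 deletion arrays, while VMA4 and VMA10 lie above.

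Of the 4 factors that assemble V0 in the ER, 2 were called and both were lower, beside 34.6% of all genes tested. VMA22 showed the largest fall of the 32 genes. It read 1.03, 1.02 and 1.03 in BY4741 and -0.91, -0.97 and -0.85 without PHO80, with the 3 deletion arrays close together. It was 3.86-fold lower (-1.95 ± 0.11, adjusted p = 0.00237), at percentile 8.0 of the fold changes of all genes. VPH2, which acts with Vma22 to stabilise the a subunit, read 0.10, 0.13 and 0.10 in BY4741 and -0.71, -1.96 and -0.70 without PHO80. Its arrays did not overlap either, but array 2 lay 1.26 below arrays 1 and 3, and the difference of -1.45 did not pass (95% interval -2.74 to -0.16, adjusted p = 0.0623). Without wild-type array 2 the difference was almost the same, -1.44. VPH2 was called in that fit, where the variance is shared over genes and the gap between its own deletion samples does not enter. VMA21, which escorts V0 out of the ER, read 1.81, 1.84 and 1.84 in BY4741 and 1.25, 1.43 and 1.28 without PHO80. Its fall of 1.4-fold passed (adjusted p = 0.0334) but not with median centring (adjusted p = 0.353), with the replicate block (adjusted p = 0.102) or when wild-type array 2 was left out (adjusted p = 0.461). PKR1, an ER membrane protein needed for V0, differed by -0.43 (log2, adjusted p = 0.0769), which turned to 0.26 with quantile normalization.

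Of the 2 RAVE genes 0 were called by limma, beside 19.2% higher and 34.6% lower of all genes, and 0 had an unadjusted p under 0.05. RAV1, its large scaffold subunit, read -1.29 on each wild-type array and -2.15, -1.57 and -2.16 on the deletion arrays, lower on all 3 (-0.57 ± 0.23, adjusted p = 0.11). RAV2 read -0.26, -0.24 and -0.22 in BY4741 and 0.97, -0.28 and 0.96 without PHO80. Arrays 1 and 3 were thus over 1 above the wild type on the log2 scale and array 2 just below it, and the estimate of 0.58 had a 95% interval of -0.70 to 1.86. SKP1, the third RAVE subunit and also part of ubiquitin ligases, differed by 0.64 on the log2 scale (adjusted p = 0.0702). Of the 4 further V-ATPase factors looked at (SKP1, VOA1, OXR1 and RTC5) 0 were called by limma, while 2 had an unadjusted p under 0.05. SKP1 and OXR1 were called higher with median centring and with 6 separate arrays, where 26.3% and 27.2% of all genes were higher. RTC5 was called lower with 6 separate arrays (44.8% of all genes lower) and with normexp (1946 of 5863 lower). VOA1 was called lower with the replicate block (2212 of 5863 lower). Without deletion array 2, which leaves 1 deletion sample, most of all genes tested were called, so calls there say little about these factors. The 4 factors had log2 fold changes of -0.82 to 0.64 and are named here because the count is small.

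With 2 samples per strain, the 3 called vacuolar hydrolases were all higher, beside 19.2% of all genes tested. AMS1, the alpha-mannosidase that reaches the vacuole from the cytosol, had the largest rise of the 32 genes. It read 1.06, 1.01 and 1.05 in BY4741 and 2.51, 2.98 and 2.60 without PHO80. All deletion arrays were far above the wild type, by 3.32-fold (1.73 ± 0.19, adjusted p = 0.00528), at percentile 96.4 of all genes. PEP4 encodes proteinase A, which activates the precursors of other vacuolar proteases. It read 2.46, 2.47 and 2.49 in BY4741 and 3.30, 3.80 and 3.26 without PHO80, 2.09-fold higher (adjusted p = 0.0206). PRB1, proteinase B, read -0.72, -0.66 and -0.72 in BY4741 and 0.14, 0.16 and 0.12 without PHO80, 1.78-fold higher (adjusted p = 0.00694). The 3 deletion arrays of PRB1 lay within 0.04 of each other, whereas array 2 of PEP4 stood 0.52 above arrays 1 and 3. Of these calls only that of AMS1 was kept without wild-type array 2, where PEP4 and PRB1 had adjusted p = 0.0986 and 0.137.

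The remaining hydrolases did not pass. APE3, aminopeptidase Y, read 1.65, 1.61 and 1.62 in BY4741 and 2.11, 1.93 and 2.11 without PHO80 (0.39 ± 0.12, adjusted p = 0.0604), and it was called with median centring (adjusted p = 0.0163). PRC1, the gene of carboxypeptidase Y, had 3.85, 4.35 and 3.75 on the deletion arrays against 3.70 to 3.73 in wild type. Its log2 fold change of 0.35 (95% interval -0.29 to 0.99) turned to -0.10 with quantile normalization. CPS1, carboxypeptidase S, lay below the wild type on all deletion arrays (-0.63, 95% interval -1.37 to 0.10), a difference that was 0.03 with quantile normalization. DAP2, the membrane-bound dipeptidyl aminopeptidase B, read 1.02, 0.37 and 1.01 in the deletion strain and 0.86 to 0.92 in wild type, again with array 2 alone below the wild type.

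Calcium and amino acid transporters were called in both directions. VCX1 encodes the exchanger that takes calcium into the vacuole against protons. It read 0.05, 0.05 and -0.05 in BY4741 and 1.5, 1.63 and 1.47 without PHO80, 2.89-fold higher on closely spaced arrays (1.53 ± 0.12, adjusted p = 0.00319, percentile 95.1 of all genes). PMC1 encodes the ATP-driven calcium pump of the same membrane. It read 1.31, 1.32 and 1.31 in BY4741 and 0.70, 1.1 and 0.69 without PHO80, below the wild type on all 3 arrays. Its log2 fold change of -0.41 did not pass (95% interval -0.91 to 0.08, adjusted p = 0.121), except with quantile normalization (-0.53, adjusted p = 0.0452), with 6 separate arrays and without deletion array 2.

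AVT1, which imports neutral amino acids into the vacuole, read -0.90, -0.88 and -0.91 in BY4741 and -2.05, -2.58 and -2.06 without PHO80, a fall of 2.68-fold (-1.42 ± 0.22, adjusted p = 0.0105). AVT4, which exports amino acids from the vacuole, read -0.63, -0.59 and -0.57 in BY4741 and -0.21, -0.16 and -0.20 without PHO80. This rise of 1.33-fold was the smallest among the called genes (adjusted p = 0.0356) and was not called with the replicate block (adjusted p = 0.169) or when wild-type array 2 was left out (adjusted p = 0.516). AVT3, the related exporter, did not pass (-0.17, 95% interval -0.90 to 0.55). Its deletion arrays read 0.01, 0.68 and 0.03 and lay on both sides of the wild type at 0.50 to 0.57. VCX1, AVT1, AMS1, VMA16 and VMA22 were called in the same direction in each of the 16 alternatives run. Fits without array 1 or 3 of a strain could differ little, and most of all genes were called without deletion array 2.

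**Figure D3:**
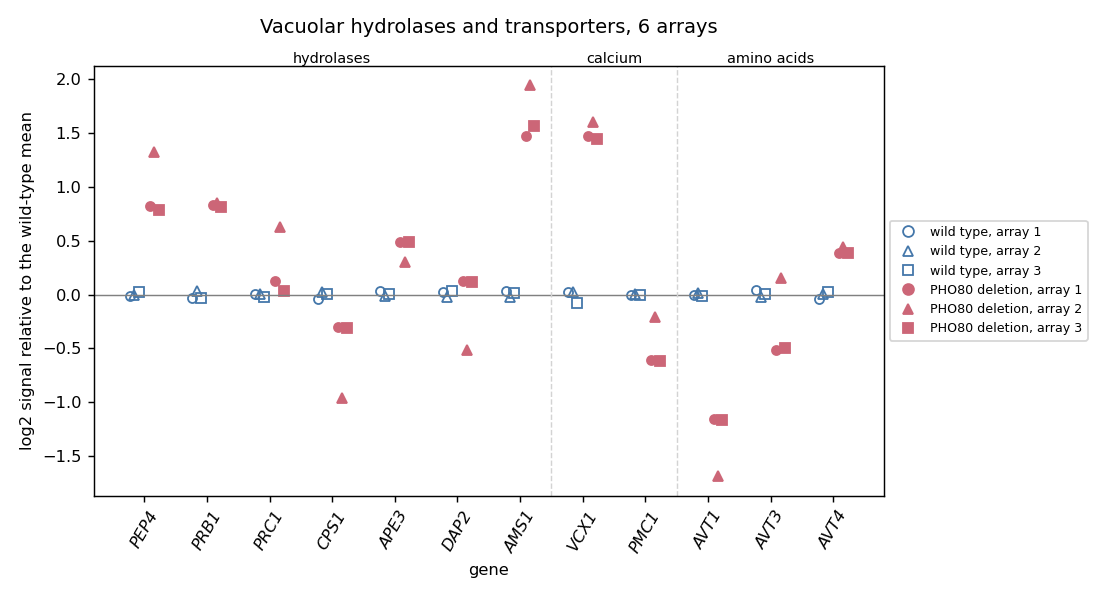
Signal of the vacuolar hydrolase and transporter genes on each of the 6 arrays (log2, relative to the wild-type mean of the gene). Open blue symbols are wild-type and filled red symbols deletion arrays; AMS1 and VCX1 stand highest, AVT1 lowest, and DAP2 and AVT3 have deletion arrays on both sides of the wild type.

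Much of the uncertainty came with array 2 of the deletion strain. Over the 32 genes the 3 wild-type arrays spanned a median of 0.04 (log2) and at most 0.11, and deletion arrays 1 and 3 differed by at most 0.10. All 3 deletion arrays spanned a median of 0.53 and up to 1.27, in VPH2. Array 2 lay over 0.5 from arrays 1 and 3 on 17 of the 32 genes (53.1%), against 37.2% of all genes tested. On 6 genes (VMA5, VMA8, VMA6, RAV2, DAP2 and AVT3, 18.8%, against 15.4% of all genes) array 2 and the mean of arrays 1 and 3 lay on opposite sides of the wild-type mean. Of the 6 V0 genes 5 read lower on array 2 than on arrays 1 and 3, with a median shift of -0.43, and of the V1 genes 3 of 8, with a median shift of 0.28. Of all 5863 genes tested 2876 read lower on array 2, with a median shift of 0.015. The counts by sector rest on few genes and were not tested. What set array 2 apart was not tested.

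**Figure D4:**
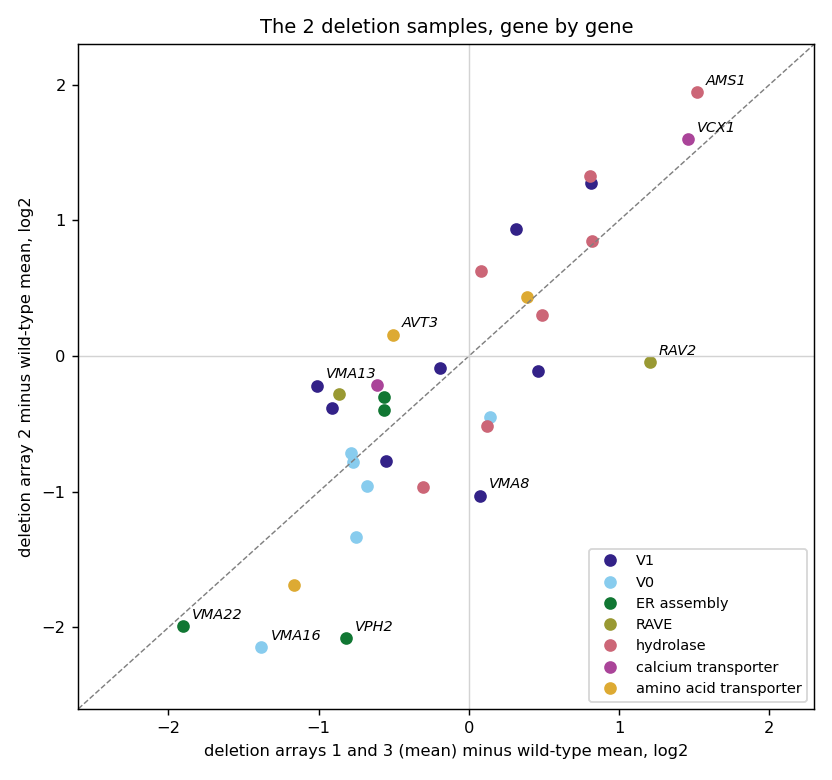
Each of the 32 genes by its difference from the wild-type mean on deletion arrays 1 and 3 (mean, horizontal axis, log2) and on deletion array 2 (vertical axis, log2), coloured by role, with equality dashed. VMA22 and VCX1 lie near the line, while RAV2, VMA8 and VPH2 lie about 1.1 to 1.26 below it.

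The number of calls depended on how the arrays were counted. Without wild-type array 2 the vacuolar genes had 2 rises (VCX1 and AMS1) and 4 falls (VMA16, VMA22, AVT1 and VPH2), when 8.92% of all genes were higher and 19.1% lower. With the wild type as 1 sample the counts were again 2 and 4, beside 8.85% and 19.3%. Without deletion array 2 all 32 genes were called, 14 higher and 18 lower, beside 37.5% and 56.1% of all genes. In that fit the spread comes from the wild-type arrays alone, which lie near spot noise, so its calls do not speak for other cultures. VMA6 was called higher there (0.14) and CPS1 lower (-0.30). With 6 separate arrays 8 were higher and 15 lower, beside 27.2% and 44.8%. The balance of all calls also depended on the scaling: rises made up 35.6% of the calls as scaled here, 50.4% with median centring and 52.8% with quantile normalization. With median centring 7 vacuolar genes rose and 7 fell (26.3% and 25.8% of all genes), and with quantile normalization 6 rose and 10 fell (27.5% and 24.6%). The 5 V0 falls were kept under both scalings. The V0 median lay 0.51 below that of all genes as scaled here and 1.0 below it with quantile normalization, and the hydrolase median lay 0.68 and 0.17 above it.

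Further genes of the vacuole were taken from lists chosen by function, 91 genes on the array of which 90 were tested. Among them 16 rose and 28 fell, 17.8% and 31.1%, again near the shares of all genes (19.2% and 34.6%). Other vacuolar hydrolases and inhibitors of the proteases, 10 genes, had 5 rises and no fall, with a median log2 fold change of 0.62. The alkaline phosphatase gene PHO8, itself a target of Pho4, rose by 1.45 ± 0.11 (adjusted p = 0.00319). ATH1, the acid trehalase, rose by 0.64 (adjusted p = 0.0145), and PAI3, an inhibitor of proteinase A, by 0.60 (adjusted p = 0.014). The other protease inhibitors were not called. PBI2, the inhibitor of proteinase B, had a log2 fold change of -0.16 (0.14 with median centring), and TFS1, the inhibitor of carboxypeptidase Y, had 0.65 (adjusted p = 0.145). Without wild-type array 2, or with the wild type as 1 sample, PHO8 alone kept its call, and fewer of all genes were called too. ATH1 and PAI3 were among the rises lost. With 6 separate arrays 2 genes of the list also fell, beside 44.8% of all genes. Without deletion array 2 it had more rises and more falls, as had all genes.

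Of 30 tested genes of other transporters in the vacuolar membrane 6 rose and 13 fell, 20.0% and 43.3% beside 19.2% and 34.6% of all genes. The counts were 9 and 9 with median centring, beside 26.3% and 25.8% of all genes. Both counts were smaller without wild-type array 2, as they were over all genes. The iron exporter gene SMF3 rose by 1.81 ± 0.13 (adjusted p = 0.00312), ATG22, which helps release amino acids made by autophagic breakdown, by 1.72 ± 0.18 (adjusted p = 0.00489), and VBA1, for basic amino acids, by 1.18 ± 0.14 (adjusted p = 0.00599). Among the falls were YPQ1, a transporter of basic amino acids (-2.13 ± 0.18, adjusted p = 0.0037), YBT1, an ABC transporter of bile acids (-1.33 ± 0.11, adjusted p = 0.00341), and VBA4 (-1.33 ± 0.13, adjusted p = 0.00426). VBA4 had adjusted p = 0.0539 without wild-type array 2.

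Calcium handling outside the vacuole was looked at beside VCX1 and PMC1. Of 12 genes 1 rose and 3 fell, 8.33% and 25.0% beside 19.2% and 34.6% of all genes. The counts were 2 and 2 with median centring, beside 26.3% and 25.8% of all genes. With quantile normalization they were 3 and 3, beside 27.5% and 24.6%. Fewer of the 12 genes were called when wild-type array 2 was left out and more when deletion array 2 was, as over all genes. RCN1, a regulator of the phosphatase calcineurin, rose by 0.67 (adjusted p = 0.0151). The channel genes CCH1 and MID1, through which calcium enters at the plasma membrane, fell (-1.33 and -1.04, adjusted p = 0.00783 and 0.0269), as did PMR1, the Golgi calcium pump (-0.76, adjusted p = 0.0081). CRZ1, the transcription factor that calcineurin activates, had a log2 fold change of 0.33 (95% interval -0.36 to 1.01, adjusted p = 0.315). MID1 lost its call with median centring (adjusted p = 0.0811), with quantile normalization (adjusted p = 0.118) and, like RCN1 and PMR1, without wild-type array 2.

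**Figure D5:**
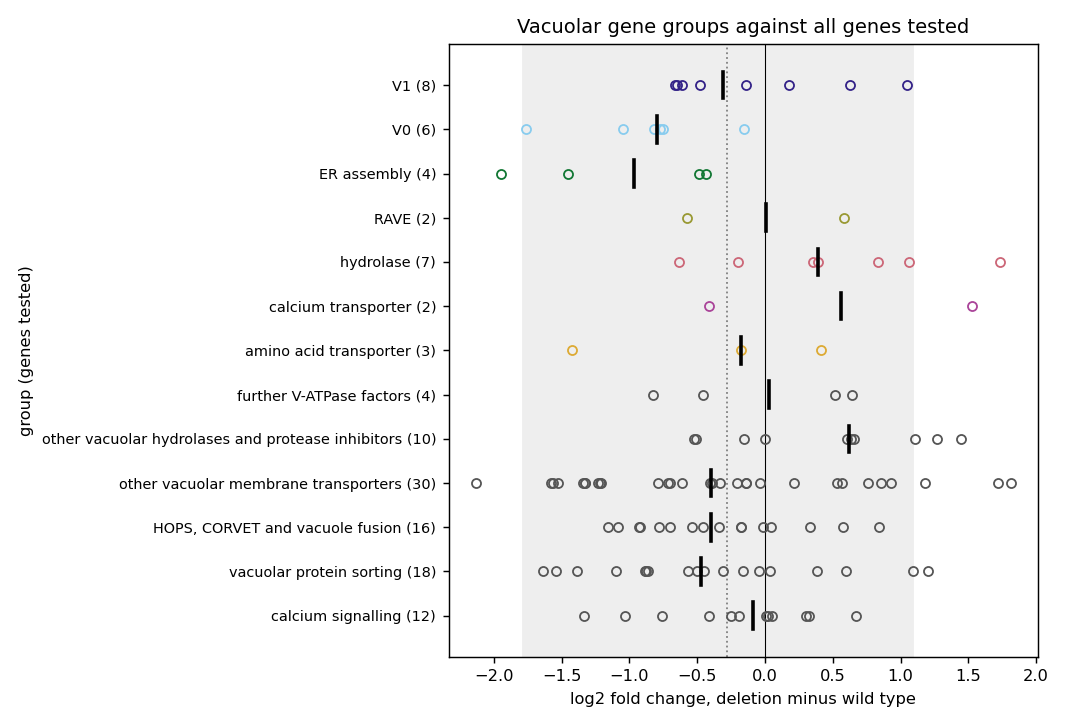
Log2 fold change (deletion minus wild type) of every tested gene in each role group and each further list of vacuolar genes, with the group median as a black bar and the number of genes in brackets. The grey band spans the 10th to 90th percentile of all genes tested (-1.79 to 1.09) and the dotted line their median. The medians of V1, V0, ER assembly, other membrane transporters, HOPS, CORVET and vacuole fusion, and vacuolar protein sorting lie left of that line. Those of the hydrolases and of all remaining groups lie right of it.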

How the data were processed

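Gene signals were read from 6 scanner files. Per the file headers, the authors scanned 1-colour arrays and extracted background-subtracted spot intensity with Agilent Feature Extraction (10.1.1.1 per the submitters' processing notes), not scaled between arrays. Their deposited value table holds 1 intensity per probe, linear and in the same direction by comparison with the scanner files (Pearson r 0.997 to 0.999). Its column medians were 1120, 1140, 950.5, 1120, 746.5 and 1670. Its scale and centring are not stated, but its median ratio to the scanner signal was 0.9964 to 0.9995 per array. It served as an alternative that holds nearly the same values.

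Control spots and outlier spots were dropped (1.12% to 1.88%). Log2 signals minus the 75th percentile were averaged per probe, each gene having 1 probe, and named by locus tag through RefSeq (assembly R64). Genes well above background (over 0.5 of spots) on at least 3 arrays were tested. Arrays 1 and 3 of a strain were averaged. limma 3.58.1 in R 4.3.3 (lmFit, eBayes with trend, 2 residual and 1.93 prior degrees of freedom) compared the strains, with Benjamini-Hochberg adjustment over all genes tested, at 0.05. The fit was tested on simulated data. Members and lists were chosen with earlier results of these data known. All 32 members are named, with PHO80, up to 3 calls each way per further list by p, and CRZ1, PBI2, PAI3 and TFS1. Normexp used the spot median. Promoter motifs, which had been planned, and sequences were not analysed here. The 16 alternatives covered scaling, background, filter, variance model, counting of arrays, block, value table and each array left out. Same-numbered arrays of the strains deviated with correlations of -0.116, -0.08 and 0.0101, so the numbers were not taken to pair them. Figures were drawn with matplotlib 3.10.9.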

Additional observations from a re-analysis of the deposited data

How the results depend on the processing

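The count of all genes called higher and lower was 519 and 1130 with the wild type as 1 sample, against 1123 and 2029, and ran from 523 to 2200 and from 1122 to 3289 when single arrays were left out. For the 32 vacuolar genes the corresponding counts were 2 and 4, against 6 and 9, with ranges of 2 to 14 and 4 to 18, and 15 were lower with 6 separate arrays. For the further vacuolar genes they were 5 and 13, against 16 and 28, with ranges of 5 to 33 and 13 to 50. The extremes came from leaving out array 2 of either strain. With the replicate block 6 vacuolar genes were higher and 11 lower, beside 1132 and 2212 of the 5863 genes tested. The block gained VMA2, VMA13, VPH2 and RAV2 and lost VMA21 and AVT4. That fit also has 1 residual and infinite prior degrees of freedom, so genes of like intensity share 1 variance. The SE of RAV2 went from 0.46 to 0.26 and that of AVT4 from 0.10 to 0.26. RAV2 was called higher there although deletion array 2 lay just below the wild type. No wild-type array correlated best with the deletion array of its own number. Among the genes named, signs turned only for those not called as scaled here: with median centring AVT3 (0.12), DAP2 (0.10), PBI2 (0.14), VMA6 (0.14) and VMA7 (0.16); with quantile normalization CPS1 (0.026), PKR1 (0.26) and PRC1 (-0.10); and without deletion array 2 DAP2 (0.12), VMA6 (0.14) and VMA8 (0.076), which over the arrays left out ran from -0.22, -0.16 and -0.49. Of 512 pairs of a vacuolar gene and an alternative, 448 kept direction and side of the threshold. The causes were not tested. Normexp, both other filters, no intensity trend and the value table changed no call among the 32 genes. Only 2 samples per strain limit the precision; all 32 genes were above background.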

Other observations

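Genes that carry proteins to the vacuole and fuse its membranes were also measured. Of 16 genes of the HOPS and CORVET tethers and of vacuole fusion, 2 rose and 5 fell, 12.5% and 31.2% beside 19.2% and 34.6% of all genes, with a median log2 fold change of -0.40. With quantile normalization 2 rose and 2 fell, beside 27.5% and 24.6% of all genes. The calls of the list were lost without wild-type array 2, where fewer of all genes were called too. The SNARE genes VTI1 and VAM7 rose by 0.84 ± 0.11 (adjusted p = 0.00764, limma) and 0.58 ± 0.13 (adjusted p = 0.029). YPT7, the Rab protein of the vacuole, fell (-1.09 ± 0.21, adjusted p = 0.0194), as did VPS16, a core tether subunit (-0.70, adjusted p = 0.014), and VAM6, a HOPS subunit (-0.78, adjusted p = 0.0103). VAM6 was -0.16 and not called with quantile normalization (adjusted p = 0.314), and VPS16 was not called with it (adjusted p = 0.0543) or with median centring (adjusted p = 0.0527).

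Of 18 genes of vacuolar protein sorting 2 rose and 7 fell, 11.1% and 38.9% beside 19.2% and 34.6% of all genes, with a median of -0.47. The falls numbered 4 with median centring, beside 25.8% of all genes. They were fewer without wild-type array 2 and more without deletion array 2, as over all genes. VPS21, an endosomal Rab protein, rose by 1.09 ± 0.11 (adjusted p = 0.00517) and VPS17, a retromer subunit, by 1.21 ± 0.22 (adjusted p = 0.0161). VPS15, the kinase partner of the Vps34 lipid kinase, fell (-1.64 ± 0.18, adjusted p = 0.00545). The adaptor AP-3 brings membrane proteins such as the alkaline phosphatase Pho8 straight from the Golgi to the vacuole, and 3 of its 4 listed genes fell: APS3 (-1.38 ± 0.21, adjusted p = 0.0109), APL5 (-0.88 ± 0.13, adjusted p = 0.0106) and APM3 (-1.1 ± 0.26, adjusted p = 0.0299). APL6 did not pass (-0.50, adjusted p = 0.141). APM3 and APL6 lie outside the naming rule and were named after their values were seen. AP-3 was not a list of its own, and its 4 genes were set together only then. Without wild-type array 2 the calls of VTI1, VAM7, YPT7, VPS16, VAM6, VPS21, APL5 and APM3 were lost.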
